A study of Mus musculus with 10 samples.

Results

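Type 2 immunity and alternative macrophage activation were examined through 10 genes in the skin of C3H/HeJ mice at week 12 after grafting. The genes were chosen by name as all probe sets that the platform annotation pairs with exactly 1 of the symbols Il4ra, Il13ra1, Mrc1, Mgl2, Retnla, Ccl17, Ccl22, Ccl24, Chil3 and Arg1. All 10 were measured, by 16 probe sets, among 18193 named genes and 45037 tested probe sets. Both groups were young adult C3H/HeJ mice, an inbred strain prone to hair loss, that had received a graft of skin from a C3H/HeJ mouse with spontaneous alopecia, a procedure that transfers alopecia areata (AA). The 5 baricitinib treated mice carried an osmotic pump delivering baricitinib, which blocks JAK1 and JAK2, from the time of grafting, and the 5 vehicle control mice carried a pump without drug. Each mouse gave 1 array of whole skin, and the labels do not say whether the biopsy lay inside or outside the graft. Loss of cells of a type and less RNA per cell cannot be told apart in such samples.

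Interleukin 4 (IL-4) and IL-13 are the central cytokines of type 2 immunity. They bind receptors that contain the IL-4 receptor alpha chain, encoded by Il4ra. This chain can be joined by the IL-13 receptor alpha 1 chain, encoded by Il13ra1. The receptors signal through Janus kinases to the transcription factor STAT6. In mouse macrophages this induces Arg1, Retnla, Chil3, Mrc1 and Mgl2, the classical markers of alternative activation, and in macrophages and dendritic cells it induces the chemokines Ccl17, Ccl22 and Ccl24. In skin several of these genes have other sources as well. Resident dermal macrophages carry Mrc1 and Mgl2, and keratinocytes can express Arg1.

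The arrays were not of equal quality. Any pair of the other 9 arrays correlated with r between 0.946 and 0.994 over all probe sets, whereas vehicle replicate 5 correlated with them at 0.697 to 0.729. The control probe sets of Gapdh and beta-actin gave a 3'/5' gap, which widens when RNA is degraded, of 0.99 to 1.18 log2 in baricitinib arrays and 1.01 to 4.35 log2 in vehicle arrays. Vehicle replicate 4 had the narrow gap of 1.01. Values are log2 expression, and differences are baricitinib minus vehicle, so that 1 unit is a doubling. The skin identity of the samples was evident in the keratinocyte markers, which averaged 12.09 to 12.75 in baricitinib and 11.92 to 12.64 in vehicle arrays over 7 genes.

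The promoters of 3 members held a short motif of STAT factors, and these are shown because these members lay on opposite sides of the comparison described next. The window from 250 bases before to 50 bases after the annotated start was available from RefSeq for 8 of the 10 members (assembly GRCm38.p6, from C57BL/6J and not from C3H/HeJ mice). It was searched for TTCNNNNGAA, the preferred motif of STAT6, and for TTCNNNGAA, the motif of other STAT factors. Each reads the same on both strands, and the 2 motifs cannot match from the same base. Of 32851 promoter windows, 6.95% held the first motif and 8.3% the second. The first stood in the windows of Retnla and Ccl17 and the second in those of Ccl17 and Chil3, and neither stood in the windows of Il4ra, Il13ra1, Mrc1, Mgl2 or Ccl22. The stretch from -180 to -61 before the start is printed with the motifs in capitals, for Retnla at chr16:48842429-48842548 (+ strand), Ccl17 at chr8:94810273-94810392 (+ strand) and Chil3 at chr3:106167625-106167744 (- strand).
Retnla: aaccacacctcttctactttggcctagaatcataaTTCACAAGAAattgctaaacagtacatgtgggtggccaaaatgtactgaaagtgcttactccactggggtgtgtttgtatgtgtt
Ccl17: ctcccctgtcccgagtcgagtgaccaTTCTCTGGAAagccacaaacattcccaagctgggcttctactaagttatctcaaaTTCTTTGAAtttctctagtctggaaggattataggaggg
Chil3: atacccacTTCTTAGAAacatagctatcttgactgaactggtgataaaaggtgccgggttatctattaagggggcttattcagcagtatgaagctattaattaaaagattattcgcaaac
A match to these letters is a description of the reference sequence and was not tested for binding.

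The 10 genes did not move as 1 program. Retnla and Mgl2 had higher values in baricitinib treated skin, Chil3 and the chemokines Ccl17, Ccl22 and Ccl24 had lower values in 4 of its 5 arrays than in most vehicle arrays, and Mrc1 and Arg1 had nearly equal means. No member probe set passed an adjusted p of 0.05 in limma (smallest adjusted p 0.221, largest 0.951), and the background was 0% of all probe sets. Without vehicle replicate 5 again 0 of 16 passed (smallest adjusted p 0.0733, background 0%). At an unadjusted p under 0.05 there were 2 of 16 member probe sets higher and 4 lower, against 9.21% and 5.62% of all probe sets. Of the 4 lower ones only that of Chil3 was the brightest of its gene, and the rest read Il4ra and Il13ra1. Leaving out vehicle replicate 5 gave 2 higher and 9 lower member probe sets, where 14.4% and 13.5% of all were past this level. Several of the 9 again read the same genes, Il4ra and Il13ra1. With array quality weights, which were 0.03 for vehicle replicate 5, 0.5 for vehicle replicate 4, 5.43 for baricitinib replicate 1 and 1.09 to 2.05 for the others, 7 of 16 passed the adjusted threshold, and so did 21.5% of all probe sets. The groups did not overlap at 1 member probe set that was higher and 2 that were lower, against 3.09% and 2.03% of all probe sets. The 2 lower ones were further probe sets of Il4ra and Il13ra1, whose brightest probe sets overlapped. By the brightest probe set of each gene there were 1 higher and 0 lower, against 3.8% and 1.82% of named genes. The median difference of the 10 genes, each by its brightest probe set, was 0.08 (-0.55 without vehicle replicate 5), and that of all named genes was 0.01 (-0.06). Of all 18193 named genes 9151 had positive and 9042 negative differences, the background for the counts by sign given below.

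**Figure D1:**
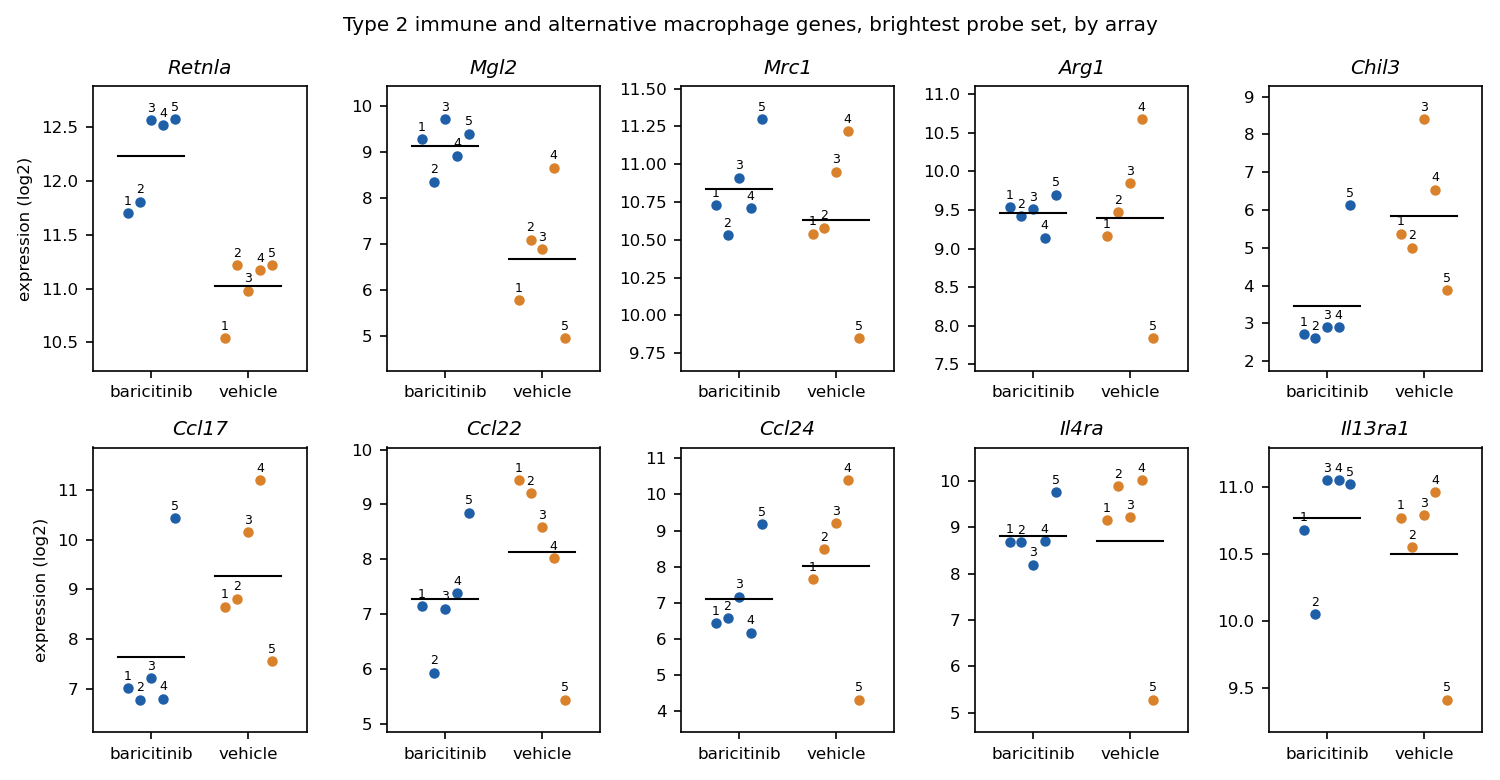
Log2 expression of each gene (brightest probe set) on each array, baricitinib left and vehicle right, with the replicate number above each point and the group mean as a black line (n = 5 each). Retnla separated the groups, with baricitinib arrays at 11.70 or higher and vehicle arrays at 11.22 or lower, and baricitinib replicate 5 stood at 10.43 for Ccl17 and 6.12 for Chil3, away from the other baricitinib arrays.

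Retnla encodes resistin-like molecule alpha (FIZZ1), a secreted protein made by alternatively activated macrophages and by adipose tissue. It was at 11.70, 11.81, 12.57, 12.52 and 12.58 in baricitinib replicates 1 to 5, and at 10.54, 11.22, 10.98, 11.17 and 11.22 in vehicle replicates 1 to 5. Every baricitinib array lay above every vehicle array, and vehicle replicates 4 and 5 lay among the other vehicle arrays. The means were 12.24 ± 0.44 in baricitinib arrays and 11.02 ± 0.29 in vehicle arrays (SD, n = 5 each), a difference of 1.21 ± 0.24 (SE) or 2.32-fold, with a limma adjusted p of 0.221. It had the smallest unadjusted p of the member probe sets (limma p = 0.000451), and its exact permutation p was 0.00794, the smallest the design allows. Any probe set whose groups do not overlap has this permutation p, so it adds nothing to the separation just given. Leaving out vehicle replicate 5 gave a difference of 1.26, and leaving out baricitinib replicate 5 gave 1.13. Of 5 listed adipocyte markers 3 were measured. These were also higher in baricitinib treated skin, with a list mean of 9.88 to 11.44 against 8.35 to 9.72 in vehicle arrays. In baricitinib replicates 3, 4 and 5, with Retnla at 12.57, 12.52 and 12.58, the list means were 11.36, 10.78 and 9.88. In replicates 1 and 2, with Retnla at 11.70 and 11.81, they were 11.44 and 10.89. The part of adipocytes in the Retnla values was not tested.

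Mgl2 encodes CD301b, a galactose-binding lectin of dermal macrophages and dendritic cells. Among the members it had the largest difference with all 10 arrays, but not without vehicle replicate 5 (2.03, against -2.88 for Chil3). Its values were 9.28, 8.35, 9.72, 8.92 and 9.40 in baricitinib replicates 1 to 5, and 5.77, 7.09, 6.88, 8.66 and 4.95 in vehicle replicates 1 to 5. The groups overlapped by 1 pair of arrays, since vehicle replicate 4 lay above baricitinib replicate 2. The baricitinib mean was 9.13 ± 0.52 and the vehicle mean 6.67 ± 1.41 (SD, n = 5 each), and the difference was 2.46 ± 0.61 (SE), or 5.51-fold (limma adjusted p = 0.224, exact permutation p = 0.0159). Without vehicle replicate 4 Mgl2 passed in limma (difference 2.96, adjusted p = 0.0355), the single member probe set to do so, where 1.88% of all probe sets passed. Vehicle replicate 4 was the vehicle array with a narrow 3'/5' gap, and its Mgl2 value lay inside the baricitinib range of 8.35 to 9.72. The part of RNA quality in the Mgl2 difference was not tested, and with the gap as a covariate the difference was 1.05 for Mgl2 and 1.11 for Retnla.

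Mrc1 and Arg1, a further pair of classical markers of alternative activation, did not differ beyond their spread. Mrc1, which encodes the mannose receptor CD206, was at 10.53 to 11.30 in baricitinib arrays (median 10.73) and at 9.85 to 11.22 in vehicle arrays (median 10.58). The difference was 0.21 ± 0.26 (SE), with a 95% interval of -0.38 to 0.79 (limma adjusted p = 0.637), and 0.01 ± 0.19 (95% interval -0.42 to 0.45) without vehicle replicate 5. Arg1, which encodes arginase 1, the enzyme that splits arginine into ornithine and urea, was at 9.54, 9.42, 9.51, 9.14 and 9.70 in baricitinib replicates 1 to 5 and at 9.16, 9.47, 9.85, 10.68 and 7.84 in vehicle replicates 1 to 5. The baricitinib arrays all lay inside the wider vehicle range. The difference was 0.06 ± 0.44 (SE), with an interval of -0.91 to 1.03 (limma adjusted p = 0.940), and it was -0.33 ± 0.28 (interval -0.95 to 0.29) without vehicle replicate 5.

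Chil3 encodes the chitinase-like protein Ym1, made by alternatively activated macrophages and by neutrophils in mice. It was at 2.72, 2.61, 2.90, 2.90 and 6.12 in baricitinib replicates 1 to 5, and at 5.37, 5.0, 8.41, 6.54 and 3.87 in vehicle replicates 1 to 5. Baricitinib replicates 1 to 4 lay below every vehicle array, and baricitinib replicate 5 lay among the vehicle arrays. The values of baricitinib replicates 1 to 4 and of vehicle replicate 5 were below 5 log2. Probe sets under this level were treated as dim, so that the size of the difference and the place of vehicle replicate 5 are uncertain. The difference was -2.39 ± 0.91 (SE, limma adjusted p = 0.289, exact permutation p = 0.0476), and it was -3.05 without baricitinib replicate 5 (limma adjusted p = 0.199). Chil3 has a near-identical neighbour, Chil4, and 1 further probe set that the annotation assigns to both genes was left out by the rule. That shared probe set was at 2.83 to 4.14 in baricitinib arrays and 3.09 to 4.83 in vehicle arrays, with a difference of -0.85. Chil4's own probe set was at 2.61 to 2.98 in baricitinib and 2.72 to 4.09 in vehicle arrays, the highest in vehicle replicate 5, and its difference was -0.29. Cross-hybridisation between these genes was not tested.

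Ccl17 and Ccl22 encode the ligands of CCR4, a receptor of type 2 helper, regulatory and skin-homing T cells, and Ccl24 encodes eotaxin-2, a ligand of the eosinophil receptor CCR3. Ccl17 was at 7.01, 6.78, 7.21, 6.80 and 10.43 in baricitinib replicates 1 to 5, and at 8.65, 8.81, 10.15, 11.19 and 7.55 in vehicle replicates 1 to 5. As for Chil3, the first 4 baricitinib arrays lay below every vehicle array and the fifth lay among them. The difference was -1.62 ± 0.85 (SE, limma adjusted p = 0.380), -2.05 without vehicle replicate 5 and -2.32 without baricitinib replicate 5. Without baricitinib replicate 5, the groups did not overlap at 6 of 16 member probe sets, against 7.8% of all probe sets. Besides those of Ccl17 and Chil3 these were that of Retnla, which was higher, and further probe sets of Il4ra and Il13ra1. For Ccl17 and Chil3 the lack of overlap follows from the order of the arrays just given and is not a separate result.

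Ccl24 was at 6.45, 6.58, 7.17, 6.18 and 9.17 in baricitinib replicates 1 to 5, and at 7.65, 8.49, 9.21, 10.39 and 4.33 in vehicle replicates 1 to 5. Vehicle replicate 5 was the lowest of all arrays here, so the groups overlapped at both ends. The difference was -0.91 ± 1.03 (SE, limma adjusted p = 0.603) with all arrays, -1.83 without vehicle replicate 5 (adjusted p = 0.132) and -0.31 without vehicle replicate 4.

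Ccl22 was at 7.15, 5.93, 7.10, 7.38 and 8.85 in baricitinib replicates 1 to 5, and at 9.44, 9.21, 8.58, 8.02 and 5.44 in vehicle replicates 1 to 5. Vehicle replicate 5 was again lowest, and baricitinib replicate 5 lay among the other vehicle arrays. The difference was -0.86 ± 0.77 (SE, limma adjusted p = 0.524), and -1.53 without vehicle replicate 5 (limma adjusted p = 0.111). Although Ccl17 and Ccl22 share a receptor and both lie on chromosome 8, vehicle replicate 4 had the highest vehicle value of Ccl17 and, vehicle replicate 5 apart, the lowest of Ccl22.

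The receptor genes of these member chemokines, Ccr4 and Ccr3, gave little signal. Ccr4 was at 2.81 to 3.13 in baricitinib arrays and 2.92 to 3.35 in vehicle arrays, and Ccr3 was at 2.21 to 2.71 with baricitinib and 2.36 to 6.13 with vehicle, the last in vehicle replicate 5 alone. Ccr4 was named after its values were seen. Of the 8 genes fixed as other ligands and receptors of type 2 chemotaxis, 7 had negative differences (median -0.50, 0 past the adjusted threshold). Among the 7 were the dim Ccr4 (-0.13) and Ccr3, which differed by -0.86 with all arrays and -0.13 without vehicle replicate 5. Ccl1, the ligand of CCR8, differed most, at 5.74, 5.62, 4.88, 5.51 and 8.88 in baricitinib replicates 1 to 5 and 9.15, 9.30, 9.24, 9.04 and 5.67 in vehicle replicates 1 to 5 (difference -2.35, limma adjusted p = 0.287). Ccr8, named after its values were seen, was dim, at 3.26 to 3.94 in baricitinib arrays and 3.51 to 4.45 in vehicle arrays. Its difference was -0.57 (limma adjusted p = 0.280), and -0.70 without vehicle replicate 5, where the groups did not overlap. Ccl7, a monocyte attractant, differed by -0.87 and the eotaxin gene Ccl11 by 0.68 (-1.51 and 0.14 without vehicle replicate 5).

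**Figure D2:**
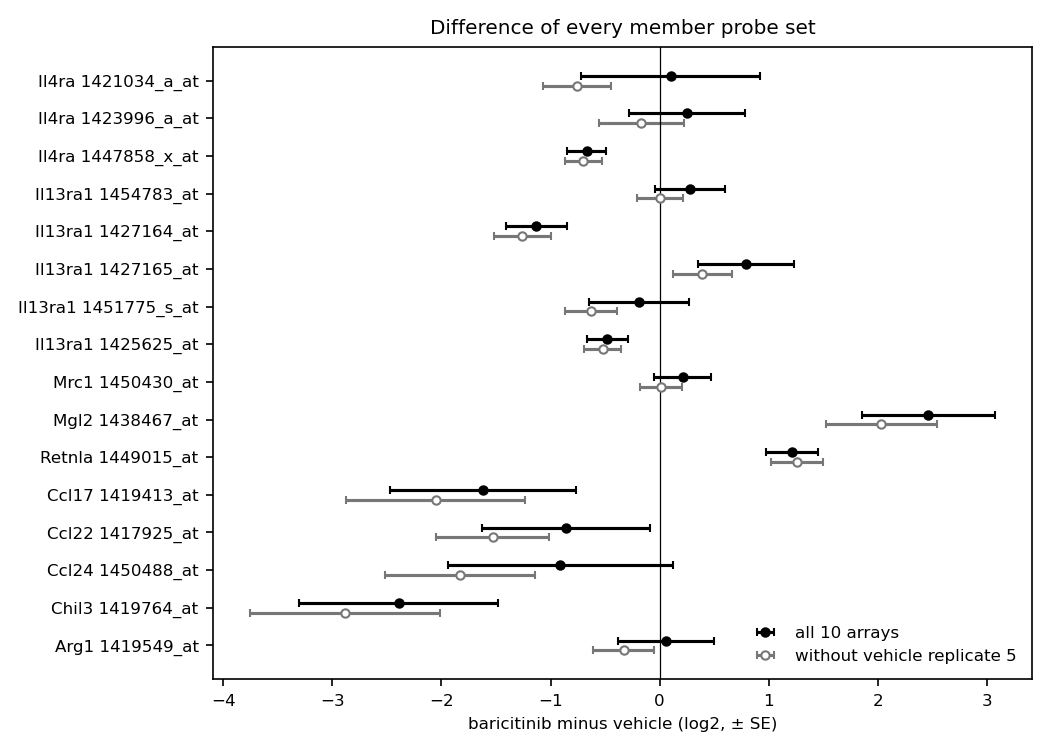
Difference of each of the 16 member probe sets, baricitinib minus vehicle in log2 with the limma SE, with filled points from all 10 arrays and open points leaving out vehicle replicate 5. Mgl2 and Retnla lay to the right of zero under both, at 2.46 and 1.21 with all arrays, while the probe sets of Il13ra1 lay on both sides, at -1.13 and 0.79.

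The receptor genes Il4ra and Il13ra1 were read by 3 and 5 probe sets, and these did not place the groups in the same way. For Il13ra1 the brightest probe set (1454783_at) was at 10.68, 10.05, 11.05, 11.05 and 11.02 in baricitinib replicates 1 to 5 and at 10.77, 10.55, 10.79, 10.96 and 9.41 in vehicle replicates 1 to 5, and the groups overlapped (difference 0.28 ± 0.32 SE, limma adjusted p = 0.611, and 0.00 without vehicle replicate 5). The probe set 1427164_at was at 9.15, 8.71, 9.42, 8.98 and 9.63 in baricitinib replicates 1 to 5 and at 10.81, 10.33, 10.85, 9.77 and 9.79 in vehicle replicates 1 to 5. It was lower in every baricitinib array than in any vehicle array, by -1.13 ± 0.28 (SE, limma adjusted p = 0.224). The probe set 1427165_at, which the annotation ties to the same transcript record, had higher means in baricitinib treated skin (9.50 ± 0.49 against 8.71 ± 0.95, SD, n = 5 each, difference 0.79, limma adjusted p = 0.395).

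The ratio of these 2 Il13ra1 probe sets within an array differed among vehicle arrays, as did their RNA quality. The value of 1427164_at minus that of 1427165_at was between -0.76 and 0.01 in baricitinib arrays. It was 2.10, 1.21, 1.88, 0.16 and 2.67 in vehicle replicates 1 to 5, whose 3'/5' gaps were 3.03, 2.0, 4.35, 1.01 and 4.06. The vehicle array with the narrowest gap was the nearest to the baricitinib arrays, and the widest gap (4.35) went with 1.88, not with the largest value. The part of RNA quality in these values was not tested. The remaining Il13ra1 probe sets gave differences of -0.19 for 1451775_s_at and -0.48 for 1425625_at. Leaving out vehicle replicate 5 gave -0.63 and -0.52 for these and 0.39 for 1427165_at, and the groups then no longer overlapped at 1425625_at, so that the direction of Il13ra1 was not settled.

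For Il4ra the brightest probe set (1421034_a_at) was at 8.69, 8.68, 8.19, 8.70 and 9.75 in baricitinib replicates 1 to 5 and at 9.15, 9.88, 9.21, 10.01 and 5.28 in vehicle replicates 1 to 5. Vehicle replicate 5 lay far below all other arrays, and the sign turned when it or baricitinib replicate 5 was left out. The difference was 0.10 ± 0.82 (SE, limma adjusted p = 0.951) with all arrays and -0.76 ± 0.31 without vehicle replicate 5 (limma adjusted p = 0.152), where baricitinib replicates 1 to 4 were below the remaining vehicle arrays. Without baricitinib replicate 5 it was -0.14. A second probe set (1423996_a_at) gave 0.25 and -0.17. The third (1447858_x_at), of a kind that can match several transcripts, was lower in every baricitinib array, at 5.15 to 5.83 against 5.89 to 6.4 in vehicle arrays (difference -0.67 ± 0.18 SE, limma adjusted p = 0.227).

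**Figure D3:**
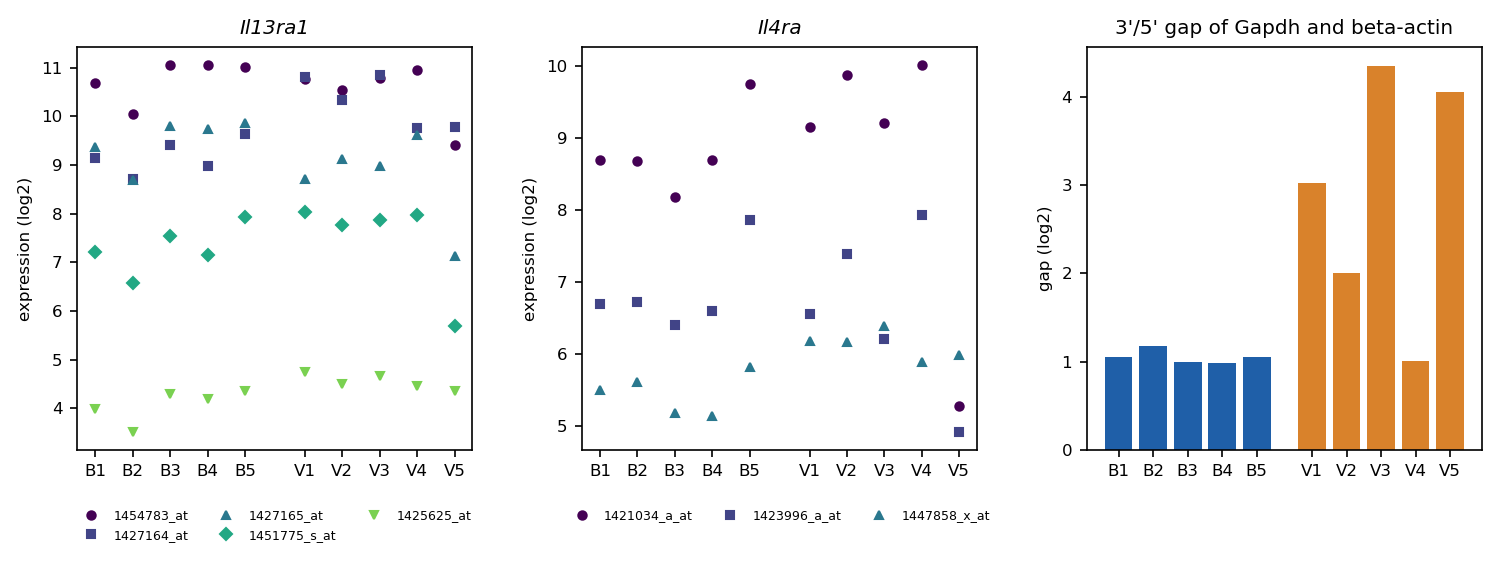
Log2 expression of the 5 Il13ra1 and 3 Il4ra probe sets on each array (B baricitinib, V vehicle), beside the 3'/5' gap in log2 (bars, baricitinib blue and vehicle orange). The 2 Il13ra1 probe sets 1427164_at and 1427165_at stood within 0.76 of each other in every baricitinib array and in V4, whose gap was 1.01, and 1.21 to 2.67 apart in the other vehicle arrays.

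Upstream of these receptors, 4 of 8 type 2 cytokine and alarmin genes stayed below 5 log2 on every array. Il4 was at 3.87 to 4.34 in baricitinib arrays and 3.55 to 4.43 in vehicle arrays, a difference of 0.10 (this gene was named after its values were seen). Il13 was at 4.56, 4.60, 4.88, 4.37 and 7.30 in baricitinib replicates 1 to 5 and at 5.92, 6.22, 6.30, 7.88 and 5.43 in vehicle replicates 1 to 5. It showed the order of Ccl17 and Chil3, with baricitinib replicates 1 to 4 below every vehicle array and baricitinib replicate 5 among them (difference -1.21 ± 0.62 SE, limma adjusted p = 0.371). Of these 8 genes 6 had negative differences and 0 passed (median -0.19). Il25, an epithelial alarmin, differed by 0.81, Il9 by -0.53 and Il5 by -0.27 (-0.16 without vehicle replicate 5). Il9 and Il5 were among the genes below 5 log2 on every array, and both were highest in vehicle replicate 5. The size of their differences is therefore uncertain. The alarmin genes Il33 and Tslp, named after their values were seen, were brighter, at 7.68 to 10.09 and 6.86 to 8.31 in baricitinib arrays and at 8.33 to 9.70 and 6.77 to 8.53 in vehicle arrays (differences -0.06 and -0.24).

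Of 13 measured genes of the other type 2 receptors and their signalling 10 had negative differences, and 0 passed (median -0.19). Il31ra, the receptor of the itch cytokine IL-31, was the exception with groups that did not overlap. It was at 8.43, 6.99, 9.71, 9.60 and 6.58 in baricitinib replicates 1 to 5 and at 5.70, 5.83, 5.82, 6.27 and 6.45 in vehicle replicates 1 to 5 (difference 2.25 ± 0.60 SE, limma adjusted p = 0.226). Il13ra2, the decoy receptor of IL-13, differed by -1.02, Gata3, the transcription factor of type 2 lymphocytes that hair follicles also express, by 1.0, and Il17rb, the receptor of IL-25, by -0.91. Stat6 was named after its values were seen. It was at 9.98 to 10.21 in baricitinib arrays and 10.19 to 11.49 in vehicle arrays, with vehicle replicate 4 the lowest vehicle array (difference -0.84 ± 0.24 SE, limma adjusted p = 0.230).

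The wider set of alternative and resident macrophage genes lay on both sides of zero as well. Of 24 measured genes 14 had positive and 10 negative differences (median 0.10), 0 passed, and the groups did not overlap at 4 that were higher and 2 that were lower, against 3.8% and 1.82% of named genes. Cd209d and Cd209a, lectins of the family of DC-SIGN, stood with Mgl2 and Retnla. Cd209d was at 9.39 to 10.18 in baricitinib arrays and 7.38 to 8.28 in vehicle arrays (difference 1.92 ± 0.24 SE), and Cd209a at 6.34 to 7.89 with baricitinib and 3.91 to 4.96 with vehicle (2.43 ± 0.34 SE, limma adjusted p = 0.221 for each). Vehicle replicate 4 lay among the other vehicle arrays for Cd209d, at 8.14, and was the highest of them for Cd209a, at 4.96. The other genes with groups that did not overlap, named after their values were seen, were Folr2 and Cbr2 of resident macrophages, which were higher (1.56 and 0.93), and Tgm2, the gene of transglutaminase 2, and the coactivator gene Ppargc1b, which were lower (-0.73 and -1.02). Further resident macrophage genes, also named after their values were seen, differed by 1.02 for Cd163, 0.00 for Timd4, 0.07 for F13a1 and 0.74 for Stab1 (0.08 without vehicle replicate 5).

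Mmp12 and Clec7a stood with Ccl17 and Chil3. Mmp12, the macrophage elastase gene, was at 6.39, 4.84, 6.37, 4.70 and 10.51 in baricitinib replicates 1 to 5 and at 9.38, 10.47, 10.20, 11.59 and 5.60 in vehicle replicates 1 to 5. Clec7a, encoding the fungal receptor dectin-1, was at 6.43, 5.62, 6.95, 6.03 and 9.92 with baricitinib and at 9.74, 10.12, 10.95, 11.22 and 5.21 with vehicle. For both genes baricitinib replicate 5 resembled vehicle replicates 1 to 4 and vehicle replicate 5 resembled baricitinib replicates 1 to 4, and the differences of -2.89 and -2.46 had limma adjusted p of 0.340 and 0.358.

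**Figure D4:**
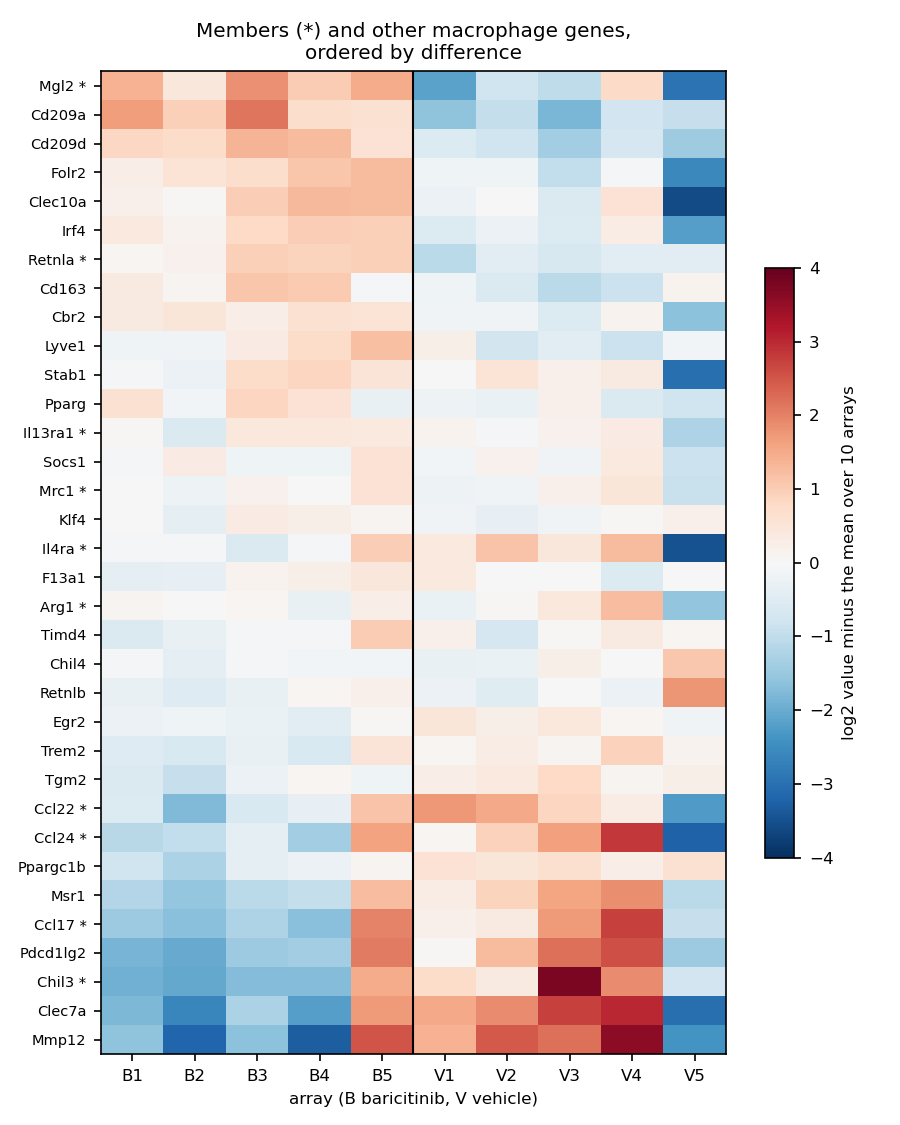
Log2 expression centred on each gene's mean of all arrays for the members (marked *) and 24 other alternative and resident macrophage genes, ordered by difference (B baricitinib, V vehicle). Mgl2, Cd209a and Cd209d lead the order, with Cd209d at 9.39 or higher in every baricitinib array and 8.28 or lower in every vehicle array, and Ccl17, Chil3, Clec7a and Mmp12 at the bottom are below their mean in B1 to B4 and above it in B5, V3 and V4.

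The members were also set against each other over the 9 arrays other than vehicle replicate 5. These correlations describe arrays that share the treatment contrast and RNA quality and carry no p. Ccl17 and Ccl24 correlated at r = 0.98, Ccl17 and Chil3 at 0.91, and Ccl17 and Il4ra at 0.84. Mgl2 and Retnla correlated at 0.86, whereas Mgl2 and Ccl22 were at -0.61. The other members did not divide in this way. Mrc1 correlated with Ccl17 at 0.71 and with Mgl2 at 0.47, Arg1 with Ccl24 at 0.80 and with Ccl22 at 0.06, and Il13ra1 with Mrc1 at 0.63 and with every other member at 0.36 or less. Among 12242 other genes with a mean of 6 log2 or more, Timp1, an inhibitor of matrix metalloproteinases, and Nlgn2, encoding neuroligin 2, stood with Ccl24 as the 3 genes most like Ccl17 (r = 0.981, 0.981 and 0.980). The same genes, with Ccl17 in place of Ccl24, were most like Ccl24 (0.975 to 0.980). Irf7, an interferon regulatory factor, was among the 3 most like Il4ra (0.973), with Eif6 (0.981) and Dennd6b (0.965).

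For the other members the most similar genes were of mixed kinds. Wdr20, Fyn and Kif3b were nearest to Mgl2 (r = 0.981 to 0.991), and Sbno1, Dynlt1f and Dctn5 to Retnla (0.955 to 0.969). Trgv1, a T cell receptor gamma segment, Pdlim4 and Ttc39c were nearest to Ccl22 (0.964 to 0.973). Parp11, Mcoln2 and Cxadr were nearest to Mrc1 (0.914 to 0.932), Id2, Mbd2 and Prelid2 to Arg1 (0.907 to 0.944), and Neurl1b, Dusp22 and Fgfbp1 to Il13ra1 (0.948 to 0.982). Chil3 was below the level set for this search.

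Of 13 measured genes of classical macrophage activation 10 had negative differences (median -0.43, 0 past the threshold). Ptgs2, which encodes the prostaglandin synthase COX-2, did not overlap between groups, at 7.66 to 8.37 in baricitinib arrays against 8.81 to 9.96 in vehicle arrays (difference -1.31 ± 0.24 SE, limma adjusted p = 0.221). Fpr2, a formyl peptide receptor, differed by -1.94, Il23a, a subunit of IL-23, by -0.98 and Gpr18 by -0.78. Nos2, the inducible nitric oxide synthase that competes with arginase for arginine, was at 4.47 to 4.80 in baricitinib arrays and 4.51 to 5.71 in vehicle arrays (difference -0.43, limma adjusted p = 0.385, and -0.25 without vehicle replicate 5). Around Arg1, 5 of 9 measured genes of arginine uptake and use had positive differences (median 0.09), and 3 of 9 without vehicle replicate 5 (median -0.16). Oat, the ornithine aminotransferase downstream of arginase, was at 10.08 to 10.65 in baricitinib arrays and 7.27 to 10.03 in vehicle arrays, so that the groups did not overlap (difference 1.43 ± 0.42 SE, limma adjusted p = 0.234), and vehicle replicate 4 was the highest vehicle array. Asl differed by 0.79 and Srm by -0.39 (0.22 and -0.80 without vehicle replicate 5).

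Markers of the cells that could carry these transcripts differed in part between the groups. Macrophage markers averaged 8.65 to 9.61 in baricitinib arrays and 6.91 to 9.58 in vehicle arrays over 12 of 13 listed genes, with 6 higher and 6 lower (median difference 0.17, and -0.16 without vehicle replicate 5). Within this list C1qa differed by 1.80, Lyz2 by 0.93, Cd68 by 0.85 and C1qc by 0.84, and without vehicle replicate 5 by 0.98, 0.39, 0.22 and -0.17. Among the 6 lower genes Csf1r, Fcgr1 and C1qb, named after their values were seen, differed by -0.73, -0.50 and -0.40. Without vehicle replicate 5 these were at -0.74, -1.12 and -0.59. Dendritic and Langerhans cell markers averaged 6.78 to 8.13 with baricitinib and 6.54 to 7.89 with vehicle over 9 of 10 genes (median -0.01). Itgax differed by -1.37 and Cd207, the langerin gene, by 1.08 (-2.09 and 0.68 without vehicle replicate 5). T cell markers averaged 6.42 to 8.50 with baricitinib and 6.35 to 9.14 with vehicle over 7 of 8 genes, with 1 higher and 6 lower. Their median difference was -0.79, and -0.94 without vehicle replicate 5. Cd8a differed most, by -3.80 (limma adjusted p = 0.286), and by -4.96 without vehicle replicate 5. In the list mean baricitinib replicate 5 was the highest of its group, as it was in the macrophage, dendritic and eosinophil list means. It was also the highest of its group for every member but Mgl2 and Il13ra1, by the brightest probe set. In the mast cell, fibroblast and skeletal muscle list means it was not. Eosinophil markers averaged 4.18 to 4.95 with baricitinib and 4.42 to 5.04 with vehicle over 5 of 7 genes. Siglecf differed by 1.17 and Alox15, which macrophages also express, by -1.44 (-2.18 without vehicle replicate 5), and the granule genes Prg2, Prg3 and Epx (the last named after its values were seen) stayed between 2.50 and 5.32 on every array. Mast cell and basophil markers averaged 7.40 to 8.33 with baricitinib and 6.33 to 7.25 with vehicle over 8 of 8 genes, so that the groups did not overlap in this mean. Of these genes 6 were higher and 2 lower (median difference 0.98). Mcpt4, Tpsb2 and Cma1 differed most, by 2.66, 2.37 and 1.62. Fcer1a and Mcpt8, named after their values were seen, differed by -0.90 and -0.43 (-1.01 and 0.00 without vehicle replicate 5). Fibroblast markers averaged 11.35 to 12.20 with baricitinib and 10.98 to 11.41 with vehicle over 6 of 6 genes, and skeletal muscle markers 10.53 to 12.47 with baricitinib and 9.76 to 11.70 with vehicle over 5 of 5. The part of cell composition in the member values was not tested.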

How the data were processed

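Skin RNA from 10 mice (5 baricitinib, 5 vehicle control, grouped and numbered by the sample titles) was amplified and biotin labelled (NuGen) and read on Affymetrix mouse genome arrays. The authors deposited log2 expression values per probe set, made with RMA on this experiment alone (background correction, quantile normalisation, summary of probes); the version is not given in the sources used here. The deposited values did not share 1 distribution exactly, with an SD over probe sets of 2.28 log2 on vehicle replicate 5 and 2.71 to 2.79 on the other arrays. The methods removed 1 vehicle array after quality control without naming it in the labels, so all 10 arrays were used and each was also left out in turn. Arrays carry no count depth, and precision is limited by the number of mice.

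Of 45101 probe sets, 64 controls were set aside and 45037 were tested without a filter. In the platform annotation 34945 had 1 symbol, 932 several and 9160 none. The groups were fitted in limma (3.58.1, R 4.3.3) by lmFit and eBayes. Tests were two-sided, p-values were adjusted by Benjamini-Hochberg across all probe sets and the threshold was 0.05. Exact permutation tests were two-sided over all 252 assignments. Each listed gene was read by its brightest probe set. The 16 lists held the 10 members and 150 further genes, of which 136 were measured. Of each further list at most 4 genes with the largest differences were named, others being marked. The members and lists were chosen with earlier results of these data known. The fit and the permutation test were tested on simulated data. Alternatives covered single arrays, array weights, normalisation, a filter on dim probe sets, the variance model, the test, the replicate number, RNA quality and the choice of probe sets.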

Additional observations from a re-analysis of the deposited data

Results flagged for a closer look

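Single arrays stood apart within their group for 4 member genes, by the gap to the nearest other array of the group relative to the group's range; chance marks about 1 in 20 groups, and 32 groups were examined. Baricitinib replicate 5 was high for Ccl17 (10.43), for Chil3 (6.12) and for the second Il4ra probe set (7.87). Vehicle replicate 5 was low for the brightest Il4ra probe set (5.28), for the brightest Il13ra1 probe set (9.41) and for the Il13ra1 probe set 1451775_s_at (5.69). These 6 values came from 2 of the 10 arrays.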

How the results depend on the processing

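The 20 alternatives gave 300 recomputed member probe set differences, none of them from the averaging of all probe sets of a gene. Of the 300, 277 kept their side of the threshold and did not change sign, and 8 passed it. The other 15 changed sign, all in probe sets of Il4ra, Il13ra1, Mrc1 and Arg1 that were not past the threshold. The member median of 0.08 turned negative under 6 alternatives, at -0.07 without baricitinib replicate 5, -0.55 without vehicle replicate 5, -0.43 with array quality weights, -0.02 after quantile normalisation, -0.13 with all probe sets of a gene averaged and -1.13 with RNA quality as a covariate. Retnla stayed positive (1.07 to 1.35) and Mgl2 too (1.05 to 2.96), and Ccl17 (-2.57 to -1.14), Ccl22 (-1.72 to -0.52), Ccl24 (-2.66 to -0.31) and Chil3 (-3.05 to -1.74) stayed negative under every alternative in which they were kept. With each array left out in turn the count of member probe sets past the threshold was 0 to 1 and that of all probe sets 0 to 848, the highest without vehicle replicate 4, followed by 12 without baricitinib replicate 5. Non-overlapping member probe sets numbered 3 to 6 (6 without baricitinib replicate 5), and the differences ranged from -0.76 to 0.42 and from -0.17 to 0.59 for the Il4ra probe sets 1421034_a_at and 1423996_a_at and from -0.33 to 0.38 for Arg1. Array quality weights (0.03 for vehicle replicate 5) called 7 member probe sets and 9676 of all probe sets, 21.5%, and gave -0.76 and -0.15 for those Il4ra probe sets and -0.10 for Arg1. Arg1 was also negative after quantile normalisation (-0.10) and median centring (-0.01). With RNA quality as a covariate the Il4ra probe sets were at -1.46 and -1.08, the Il13ra1 probe sets 1454783_at and 1427165_at at -0.15 and -0.07, Mrc1 at -0.16 and Arg1 at -0.79; the gap hardly varied among baricitinib arrays, so this adjustment rests on the vehicle arrays. With all probe sets of a gene averaged, 1 of the 10 members, Retnla, did not overlap between groups, against 5.18% of 18193 genes. The cause of these changes was not tested. The replicate number as a block left 0 member probe sets past the threshold and changed no call. The labels give same-numbered arrays no tie other than the number. The correlation of their deviations from the group means was between -0.227 and 0.0885. These values cannot show whether arrays were paired, because vehicle replicate 5 weighs on the vehicle mean.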
